A study of Mus musculus with 3 samples.

Results

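Axon guidance ligands and receptors were followed through the cells of injured mouse muscle around a synthetic implant. The genes were chosen by symbol: semaphorins of classes 3 to 7, plexins, neuropilins, Slit and Robo genes, ephrins and their Eph receptors, netrins 1, 3, 4 and 5, and the netrin receptors Unc5a to Unc5d and Dcc. The rule found 69 of the 32285 genes in the matrices: 7 secreted (class 3) semaphorins, 13 membrane semaphorins, 9 plexins, 2 neuropilins, 3 Slit and 4 Robo genes, 5 ephrin-A and 3 ephrin-B ligands, 9 EphA and 5 EphB receptors, 4 netrins, and 5 netrin receptors. The samples were wildtype C57BL/6 mice with a volumetric muscle loss of the quadriceps, a surgical defect, filled with PCL particulate (polycaprolactone, a degradable polyester), taken at week 6. All 3 libraries belong to this 1 group, named here replicates 1, 2 and 3. There was no untreated, sham or implant-free group, so comparisons were made between cell classes within libraries. Cells with and without CD45, the leukocyte surface protein, were separated on magnetic beads and remixed in equal numbers before droplet sequencing of transcript 3′ ends. The named immune classes made up 37.3%, 15.04% and 33.0% of the kept cells of replicates 1, 2 and 3. Cells of unnamed clusters, many of them closest to an immune class, are not in these shares. Nothing in the labels ties each replicate to its own animal. The p-values therefore reflect the scatter of 3 samples, and that scatter could be purely technical.

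These families were first studied as cues that attract or repel growing axons, and the same genes act in vessels, connective tissue and immune cells. Class 3 semaphorins are secreted and bind neuropilins, which pair with plexins as the signalling receptors, while most membrane semaphorins bind plexins directly. Slit proteins bind Robo receptors, netrins bind Dcc and Unc5 receptors, and ephrins on one cell bind Eph receptors on its neighbour, with signalling possible into either cell. In endothelium, ephrin-B2 and its receptor EphB4 are classic arterial and venous genes, neuropilin-1 is a co-receptor for VEGF, and neuropilin-2 is typical of veins and lymphatic vessels.

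The libraries held 6068, 8643 and 4996 barcodes with medians of 17855.5, 20286 and 17008.5 UMIs (unique molecular identifiers, 1 per captured molecule), and 17955 cells were kept. Pairs of libraries shared 10 to 13 barcodes. Cells were clustered without the guidance genes, and each class is called "-like" because it was named from marker genes. Of 18 classes named, 12 had at least 20 cells in every library, and 24 unnamed clusters held 1377 cells. Most of these unnamed clusters had an immune class as their best match. Fibroblast-like cells were the largest class, with 2295, 5495 and 2120 cells, which made up 71.4% of replicate 2 and 40.6% and 46.0% of the others. Median depth differed between classes, from 1528 UMIs in muscle fibre-like and 5325 in neutrophil-like cells to 26562 in fibroblast-like cells. Free RNA was gauged with the fibroblast genes Col1a1, Col3a1, Dcn and Lum, which stood at 0.263% to 3.42% of the fibroblast-like level across the 6 immune classes, at 0.852% to 1.94% in both endothelial classes and at 1.12% to 9.63% in mural-like cells.

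Expression is given as CPM, that is, UMI counts scaled to one common total for each library and class, with TMM, an edgeR scaling that evens out composition. Of the 69 genes, 49 reached a mean of 10 CPM in at least 1 of the 12 classes, and 20 stayed under it in all 12, among them Dcc (at most 1.83 CPM), Efna3, Robo3, Unc5d and Epha8. The classes with most genes at 10 CPM or more were fibroblast-like (33), mural-like (29), tenocyte-like (28), endothelial-like (27) and lymphatic-like cells (25). Immune classes had fewer, from 7 in neutrophil-like to 14 in T-like cells. Muscle fibre-like cells, the class with the lowest median depth, also had 7, and the part of depth in these counts was not tested. Lymphatic-like cells were the highest class for 12 genes, endothelial- and fibroblast-like cells for 9 each and mural-like cells for 6. For 38 of the 49 genes every library of the highest class lay above every library of the next class, as it did for 54.8% of all 12681 genes at 10 CPM or more in a class.

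**Figure D1:**
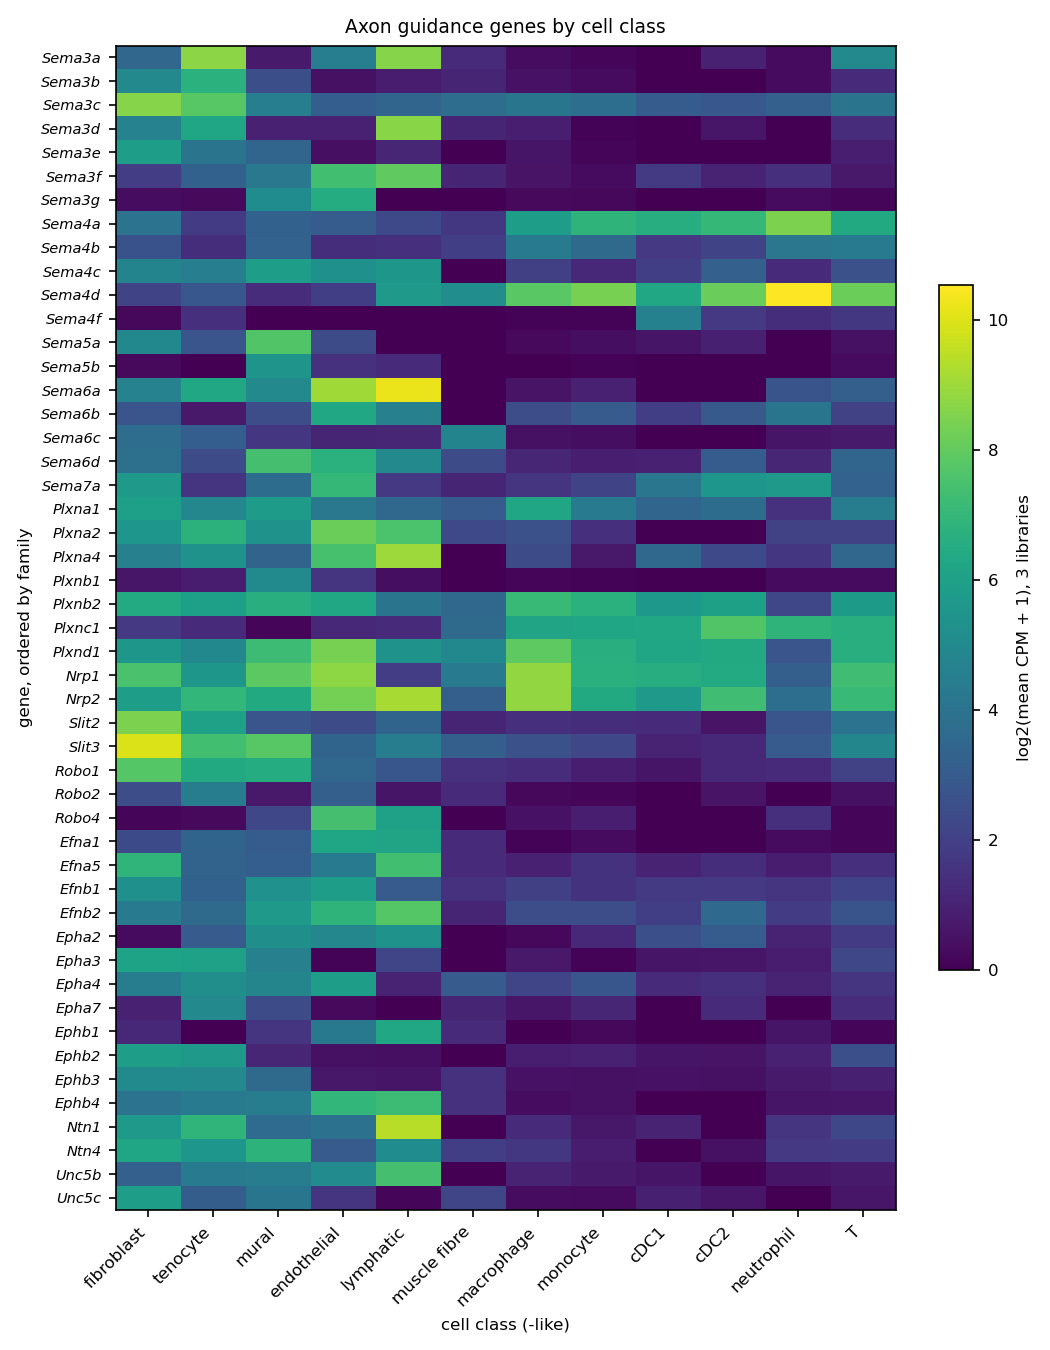
Mean level of the 49 axon guidance genes that reached 10 CPM, as log2(mean CPM + 1) over 3 libraries (colour), with genes in rows by family and the 12 cell classes in columns. The fibroblast-, endothelial-, lymphatic- and mural-like columns hold most of the high levels, while Sema4d, Sema4a, Plxnc1, Plxnd1 and the neuropilins are among the higher entries of immune classes.

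The gene of each family with the largest CPM in any of the 12 classes with at least 20 cells in every library is described next. Counts are not scaled by transcript length, so this order only picks the examples. Slit3, a secreted Robo ligand, had 1020, 1082 and 974 CPM in fibroblast-like cells (replicates 1, 2 and 3) and 223 ± 15.9 CPM (mean ± SD, n = 3) in mural-like cells, the next class. Robo1, a Slit receptor, followed the same order with 203, 225 and 222 CPM in fibroblast-like and 91.3 ± 15.3 in mural-like cells. Ligand and receptor were thus both highest in fibroblast-like cells, with no overlap with the next class for either gene. Sema4d, a membrane semaphorin that binds plexin-B receptors, had 1526, 1562 and 1396 CPM in neutrophil-like cells, against 336 ± 39.5 in monocyte-like cells. Its neutrophil-like libraries all lay far above those of every other class. Among the following classes, T-like (285 ± 7.31) and cDC2-like cells (284 ± 72.1) did not separate from each other.

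For 7 families the example picked this way fell in lymphatic-like cells. Ntn1, a secreted netrin, had 666, 621 and 774 CPM there and 119 ± 44.6 in tenocyte-like cells, the next class. Unc5b, a netrin receptor known from endothelium, had 176, 147 and 197 CPM in the same cells and 32.8 ± 4.53 in endothelial-like cells. Plxna4, a plexin that pairs with neuropilins, stood at 504.5 ± 100 CPM against 175 ± 40.1 in endothelial-like cells, and Nrp2 at 568 ± 44.9 against 457 ± 15.6 in macrophage-like cells. Efnb2 (ephrin-B2) reached 217 ± 28.5 CPM against 114 ± 11.6, and Efna5 reached 165 ± 26.6 against 118 ± 10.4 in fibroblast-like cells. For these genes no library of the next class reached the lymphatic-like libraries. This order holds among the 12 larger classes only. Of the smaller classes, Schwann-like cells had 109, 405 and 216 CPM of Efna5, and migratory dendritic-like cells had 532 ± 105 of Nrp2. A small arterial-like subcluster described below also had more Efna5 than lymphatic-like cells. Ephb4, the ephrin-B2 receptor, was at 151 ± 18.0 CPM in lymphatic-like and 125 ± 19.0 in endothelial-like cells, which overlapped. Sema3a, a secreted repellent of axons, had 202, 361 and 678 CPM in tenocyte-like and 576, 324 and 279 in lymphatic-like cells, so the order of these classes is not settled. Epha3, the example of the EphA receptors, was at 67.5 ± 6.90 CPM in fibroblast-like and 65.5 ± 14.6 in tenocyte-like cells, whose libraries overlapped.

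**Figure D2:**
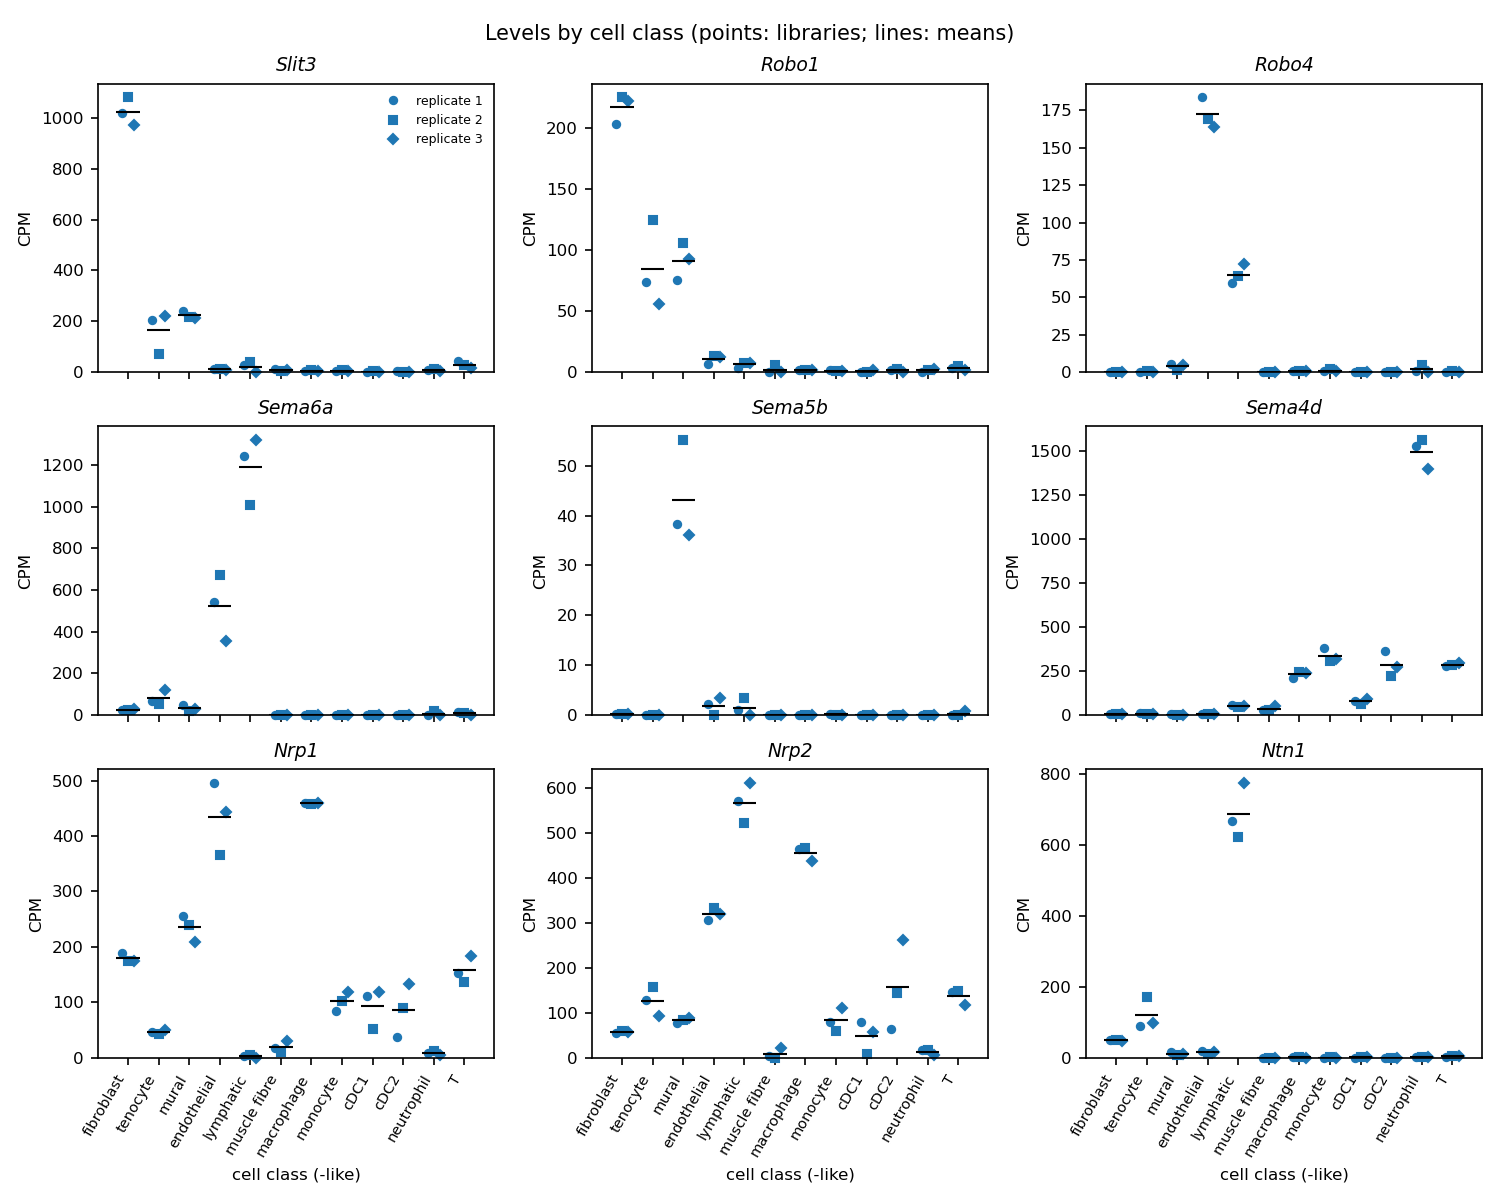
CPM of 9 genes in each cell class; each point is 1 library and each line the mean of 3. Slit3 and Robo1 are highest in fibroblast-like, Robo4 in endothelial-like, Sema5b in mural-like, Sema4d in neutrophil-like and Ntn1 in lymphatic-like cells, while Nrp1 is near 0 in lymphatic-like cells and overlaps between macrophage- and endothelial-like cells.

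Tests compared summed UMIs of both sides of a comparison within each library, and calls required an adjusted p (Benjamini-Hochberg over all genes tested, edgeR quasi-likelihood) below 0.05 together with a log2 difference of 1 or more in size. Each comparison was scaled on its own, so its CPM differ somewhat from the levels by class. Sequences are shown for the gene with the largest called log2 difference upwards (at 10 CPM or more) in 4 of the comparisons that follow (immune-, fibroblast-, endothelial- and mural-like cells), so that the genes these results turn on can be seen at their start sites. Each is the 250 bases before the most upstream start in RefSeq (GRCm38.p6). Capitals mark matches, on either strand, to the GC box (GGGCGG) or the TATA box (TATAAA); the ETS core (CCGGAA), the AP-1 site (TGANTCA) and the TEAD site (GGAATG) were searched as well. Sema4d lies at chr13:51756684-51756933 (minus strand), Slit2 at chr5:47982905-47983154 (plus), Robo4 at chr9:37401722-37401971 (plus) and Sema5b at chr16:35541112-35541361 (plus).
Sema4d: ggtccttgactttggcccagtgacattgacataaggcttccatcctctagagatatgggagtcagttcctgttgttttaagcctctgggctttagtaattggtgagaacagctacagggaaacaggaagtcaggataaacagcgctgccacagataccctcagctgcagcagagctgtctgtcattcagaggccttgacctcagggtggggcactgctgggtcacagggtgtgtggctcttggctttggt
Slit2: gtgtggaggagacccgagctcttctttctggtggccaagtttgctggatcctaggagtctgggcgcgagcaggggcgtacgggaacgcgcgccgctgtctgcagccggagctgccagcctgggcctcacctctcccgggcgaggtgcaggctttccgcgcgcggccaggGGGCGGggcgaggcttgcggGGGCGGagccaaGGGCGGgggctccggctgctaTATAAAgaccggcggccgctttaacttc
Robo4: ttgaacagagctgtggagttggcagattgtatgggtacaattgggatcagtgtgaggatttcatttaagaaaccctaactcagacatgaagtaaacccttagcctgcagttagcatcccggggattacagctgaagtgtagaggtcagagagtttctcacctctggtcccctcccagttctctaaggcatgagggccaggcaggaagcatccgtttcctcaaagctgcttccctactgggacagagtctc
Sema5b: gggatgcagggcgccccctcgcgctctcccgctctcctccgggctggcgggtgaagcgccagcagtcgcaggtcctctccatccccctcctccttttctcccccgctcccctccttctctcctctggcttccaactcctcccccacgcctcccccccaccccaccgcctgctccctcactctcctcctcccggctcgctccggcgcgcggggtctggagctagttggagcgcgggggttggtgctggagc
Slit2 holds 3 GC boxes and 1 TATA box, and the other 3 windows hold no match to any of the 5 motifs. Their base composition differs: G and C make up 69.6% of the Slit2 and 72.0% of the Sema5b window, and 49.6% of Robo4 and 52.0% of Sema4d. Of all 27025 RefSeq windows of this length, 33.0% hold a GC box, 12.98% a TATA box, 12.3% an ETS core, 12.6% a TEAD site and 6.85% an AP-1 site. Of the 59 guidance genes found in the table, 43 hold a GC box, 2 a TATA box, 6 an ETS core, 7 a TEAD site and 1 an AP-1 site.

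Immune-like cells had lower levels of most guidance genes than stromal-like cells. Of the 64 genes tested, 45 were lower and 9 higher, where 48.9% of all genes tested were called in either direction. The median log2 difference was -3.15 over the guidance genes and -0.12 over all 17694 genes tested. All 7 secreted semaphorins, all 5 EphB receptors, all 3 ephrin-B ligands, and every ephrin-A ligand (4) and Robo gene (3) tested were lower. In an alternative fit, every class with at least 20 cells in every library had equal weight, and the smaller classes were left out. There, 19 of 50 genes tested were lower and 5 higher, and 38.9% of all genes were called. Besides the genes described next, Epha10, Slit1 and Sema4f were called higher, of which only Sema4f reached 10 CPM in a class.

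Sema4d had 266, 274 and 230 CPM in immune-like and 4.57, 3.60 and 3.96 in stromal-like cells, a log2 difference of 6.07 ± 0.13 (SE, adjusted p = 1.04e-06). Plxnc1, the receptor of the membrane-anchored Sema7a, had 63.5, 82.3 and 83.3 against 1.92, 1.86 and 2.46 CPM, a log2 difference of 5.28 ± 0.12 (adjusted p = 1.13e-06). These 2 genes were above the stromal sums in every library. Sema4a, a membrane semaphorin of immune cells, was higher by 2.97 ± 0.43 on the log2 scale (adjusted p = 0.00121). Its stromal level was uneven, with 25.9 CPM in replicate 2 and 6.40 and 5.74 in the others. Nrp2 (281 ± 27.5 against 72.0 ± 3.56 CPM), Plxnd1, a receptor for Sema3e (158 ± 18.8 against 54.5 ± 4.75), and Sema4b (15.3 ± 1.24 against 4.44 ± 0.194) were also higher. With equal class weight the Nrp2 difference turned to -0.10 and that of Plxnd1 to 0.00 (adjusted p = 0.806 and 1.0). Nrp1 did not pass the fold threshold, with a log2 difference of 0.87.

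At the low end, Unc5c, a netrin receptor, had 0.171, 0.514 and 0.215 CPM in immune-like and 37.4, 52.1 and 49.9 in stromal-like cells. Its log2 difference was -7.34 ± 0.18 (adjusted p = 1.29e-06). Slit3 had 6.45, 9.76 and 3.44 against 771, 866 and 769 CPM, and Slit2 had 4.02, 3.66 and 1.46 against 232, 295 and 299. Robo1, Sema3e and Sema5a followed, with log2 differences of -6.89, -6.39 and -6.31. The 9 genes that were highest in fibroblast-like cells stood at a median of 0.406% to 1.05% of the fibroblast-like level in macrophage-, monocyte-, neutrophil-, cDC1- and cDC2-like cells and at 2.83% in T-like cells. In each of these classes that median lay within or below the range of Col1a1, Col3a1, Dcn and Lum, and the part of free RNA in the immune values was not tested. With equal class weight Slit2, Sema3e and Sema5a were no longer called (adjusted p = 0.0755, 1.0 and 1.0).

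Within the immune compartment, macrophage-like cells had more of both neuropilins. Of 32 genes tested, 5 were higher and 11 lower than in other immune-like cells, where 26.2% of all genes were called. Nrp1 had 419, 420 and 418 CPM in macrophage-like and 83.1, 85.3 and 113 in other immune-like cells, a log2 difference of 2.08 ± 0.11 (adjusted p = 4.50e-06). Nrp2 had 424, 427 and 400 against 84.8, 81.1 and 118 CPM, a difference of 2.06 ± 0.13 (adjusted p = 1.02e-05). The groups were far apart in every library, and the macrophage-like level hardly varied between libraries. Their plexin partners Plxna1 (67.6 ± 2.08 against 13.6 ± 4.46 CPM) and Plxnd1 (221 ± 7.43 against 73.5 ± 8.39) were higher too. Plxna2 was also called higher, with a log2 difference of 1.24, but stayed under 10 CPM in macrophage-like cells (chosen after its values were seen). Sema7a, which is anchored to the membrane by a lipid, was lower at 1.83 ± 0.808 against 17.8 ± 4.22 CPM, and Sema4a was lower at 53.2 ± 2.05 against 114 ± 5.57. Slit2 and Slit3 were also called lower, at 1.52 and 4.66 CPM against 5.48 and 9.73 (chosen after their values were seen), and the part of free RNA in these values was not tested. With equal class weight 6 of 21 genes tested were higher and 5 lower, and 25% of all genes were called.

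Fibroblast-like cells had more of the Slit ligands, Robo1, Sema3c and Unc5c than other stromal-like cells. Of 61 genes tested, 17 were higher and 27 lower, where 30.8% of all genes were called. Slit2 had 286, 339 and 356 CPM in fibroblast-like and 8.57, 21.1 and 11.5 in other stromal-like cells, a log2 difference of 4.53 ± 0.21 (adjusted p = 6.62e-06). Slit3 had 944, 996 and 910 against 71.3, 69.1 and 74.2 CPM, a difference of 3.66 ± 0.09 (adjusted p = 5.59e-07). Every fibroblast-like library exceeded every other stromal-like value for both genes. Sema3c, a secreted semaphorin of mesenchymal cells, was at 368 ± 52.1 against 37.0 ± 10.1 CPM, and Sema3e, the ligand of plexin-D1, at 55.0 ± 3.47 against 7.79 ± 2.15. The receptors Unc5c (54.7 ± 8.19 against 5.80 ± 2.39) and Ephb2 (55.5 ± 3.55 against 8.47 ± 3.62) were higher as well. Robo1 was higher with a log2 difference of 2.33, and Nrp1 did not pass the fold threshold with -0.51. By class, some small classes exceeded fibroblast-like cells. Schwann-like cells (13, 9 and 15 cells) had 276, 111 and 179 CPM of Sema3e against 60.9, 62.6 and 54.6 in fibroblast-like cells. Perineurial-like cells (3, 11 and 5 cells) had 208, 131 and 158 CPM of Ephb2 against 63.6, 60.8 and 55.4. Slit2, Slit3, Sema3c, Unc5c and Robo1 had lower means in both small classes than in fibroblast-like cells.

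In the other direction the largest difference was that of Robo4. This gene, the Robo gene of endothelium, had 0.109, 0.0855 and 0.0996 CPM in fibroblast-like and 91.3, 76.7 and 72.4 in other stromal-like cells. Sema3g (0.249 ± 0.148 against 42.4 ± 10.2 CPM), Epha2 (0.215 ± 0.116 against 28.1 ± 3.80), Sema5b (0.178 ± 0.0601 against 10.1 ± 2.33), Sema3f (2.60 ± 0.642 against 118 ± 26.0) and Ephb1 (1.18 ± 0.697 against 24.6 ± 2.32) were lower too. With equal weight for the other classes 5 of 48 genes tested were lower and 21 higher, where 23.7% of all genes were called, and Robo4, Sema3g, Epha2, Sema5b and Ephb1 lost their calls while keeping their sign.

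Endothelial-like cells, taken here with lymphatic-like cells, had 22 genes higher and 22 lower than other stromal-like cells among 58 tested, where 34.5% of all genes were called. Robo4 had 148, 129 and 134 CPM against 0.217, 0.113 and 0.220, the widest gap of the comparison, with a log2 difference of 9.70 ± 0.15 (adjusted p = 4.49e-08). Sema6a, a membrane semaphorin that binds plexin-A receptors, had 744, 807 and 692 against 25.6, 23.0 and 25.4 CPM, a difference of 4.999 ± 0.12 (adjusted p = 1.55e-07). Both genes were higher in every library with no overlap. The secreted Sema3f (194 ± 34.0 against 2.98 ± 0.647 CPM) and Sema3g (60.04 ± 13.2 against 1.10 ± 0.307) were higher, as were the receptors Ephb1 (39.2 ± 3.65 against 1.36 ± 0.646) and Epha2 (33.2 ± 5.02 against 1.18 ± 0.114). Ephb4, Nrp2 and Plxnd1 were higher by 3.33, 2.96 and 2.43 on the log2 scale, and Nrp1, at 0.88, did not pass the fold threshold.

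Among the genes that were lower, Slit3 had 15.4, 20.7 and 5.24 CPM in endothelial-like and 894, 966 and 868 in other stromal-like cells, a log2 difference of -5.96 ± 0.29 (adjusted p = 3.27e-06). Slit2, Sema3e, Sema3b, Unc5c and Ephb2 were lower by log2 differences of -5.47 to -6.84. The genes highest in fibroblast-like cells stood at a median of 1.23% of the fibroblast-like level in endothelial-like cells, where Col1a1, Col3a1, Dcn and Lum stood at 0.852% to 1.35%, and at 2.01% in lymphatic-like cells, where these markers stood at 1.23% to 1.94%. The part of free RNA in these values was not tested. Equal class weight gave 22 of 48 genes tested higher and 12 lower, and 27.7% of all genes were called. Sema3g, Ephb2, Sema3e and Slit2 then lost their calls.

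Mural-like cells (pericytes and smooth muscle of vessel walls) had more of the membrane semaphorins Sema5b, Sema5a and Sema6d than the sum of other stromal-like cells. Of 58 genes tested, 11 were higher and 22 lower than in other stromal-like cells, where 24.1% of all genes were called. Sema5b, a membrane semaphorin with thrombospondin repeats, had 40.2, 57.9 and 37.8 CPM in mural-like and 0.328, 0.300 and 0.390 in other stromal-like cells, a log2 difference of 7.14 ± 0.29 (adjusted p = 3.63e-10). Sema5a, its relative, had 251, 198 and 191 against 20.9, 24.5 and 32.2 CPM, a difference of 3.12 ± 0.17 (adjusted p = 5.83e-09). Both were higher in every library. Sema6d (178 ± 21.9 against 17.3 ± 2.27 CPM), Plxnb1, a Sema4d receptor (32.8 ± 4.83 against 0.697 ± 0.0589), and Epha2 (39.0 ± 1.58 against 2.40 ± 0.679) were higher too. Sema3g, at 48.6, 17.3 and 40.9 CPM against 6.54, 3.04 and 3.09, was higher here. However, its log2 difference was -0.73 when clusters were made at a finer resolution (adjusted p = 0.258). By class, Schwann-like cells (13, 9 and 15 cells) had 448, 1097 and 533 CPM of Sema5a against 240, 189 and 182 in mural-like cells. Plxnb1 was also higher in Schwann-like cells, at 62.2 ± 6.47 against 31.2 ± 4.60 CPM. Sema6d overlapped between these classes (156, 366 and 137 against 178, 186 and 146 CPM), as did Sema3g. Sema5b and Epha2 had lower means in Schwann-like cells, at 19.2 and 13.2 against 43.2 and 37.2 CPM.

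On the lower side, Slit2 had 6.00, 10.3 and 2.48 CPM in mural-like and 247, 312 and 323 in other stromal-like cells, a log2 difference of -5.45 ± 0.24 (adjusted p = 6.77e-10). Slit3 was lower by -1.82, and its level in mural-like cells was 21.8% ± 1.81 of the fibroblast-like level, against 1.71% ± 1.03 for Slit2. The 9 genes highest in fibroblast-like cells had a median of 21.8% there, above the 1.12% to 9.63% of the fibroblast markers. How much of either was free RNA and how much was made by mural-like cells was not tested. Ephb2, Sema3a, Sema3d, Sema3c and Efna5 were lower by log2 differences of -3.58 to -5.24. Equal class weight gave 23 of 48 genes tested higher and 4 lower, where 22.1% of all genes were called, and Slit2, Ephb2, Sema3c and Efna5 lost their calls.

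Fibroblast-like cells were divided into subclusters, again without the guidance genes, and 10 states had at least 20 cells in every library. They are called here by leading genes: Saa3/Kif26b (1690 cells), Pi16/Dpp4 (1666), Eln/Comp (1271), Spp1/Tnc (1097), Spon2/Lrrc15 (1040), Saa3/Ccl8 (754), Myoc/Abca8a (706), Cxcl10/Gdf10 (649), Sfrp4/Lbp (603) and Top2a/Mki67 (387), the last made of cycling cells. A further 47 cells with myeloid genes were left out. Each state was tested against the mean of the log2 levels of the other 9, so a fold refers to their geometric mean, while the CPM given for other states are plain means. For 2 of 138 calls, Unc5c and Ephb1 in the Cxcl10/Gdf10 state, the sign of the call and that of the plain means differ. States come from the other genes of the same cells, so a p for a state describes a difference and is no independent test.

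Of 52 guidance genes tested over the states, 41 were called in at least 1 state, as were 43.4% of all 14611 genes tested, and 28 were higher in 1 state and lower in another, as were 24.6% of all genes. There were 74 calls of a higher and 64 of a lower level. The mean of Sema7a went from 0.759 CPM in the Pi16/Dpp4 to 147 in the Spp1/Tnc state, that of Unc5c from 0.335 in the Pi16/Dpp4 to 99.9 in the Saa3/Kif26b state, and Slit2 went from 11.0 to 710, Sema3c from 29.1 to 1582, and Epha4 from 1.04 to 43.8. Slit3, Nrp1 and Plxnb2 were called in no state, with ranges of 431 to 1307, 102 to 261 and 49.9 to 93.6 CPM.

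**Figure D3:**
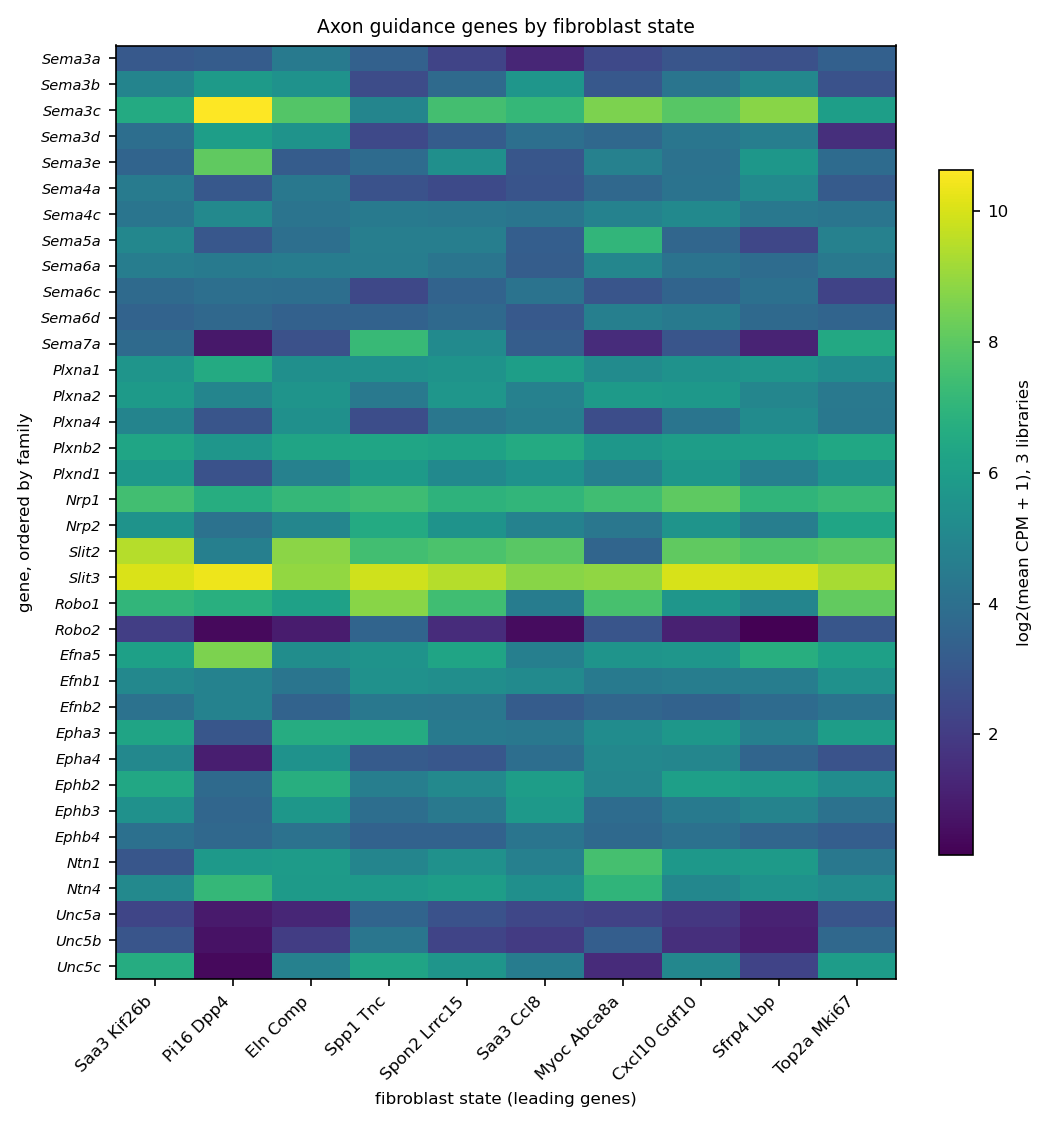
Mean level of the 36 guidance genes that reached 10 CPM in a fibroblast state, as log2(mean CPM + 1) over 3 libraries (colour), with genes in rows by family and the 10 states in columns. Slit3 and Nrp1 were called in no state, with ranges of means of 431 to 1307 and 102 to 261 CPM, whereas Sema3c, Sema3e and Efna5 stand out in the Pi16/Dpp4 column, Slit2 is low there and in the Myoc/Abca8a column, and Sema7a is high in the Spp1/Tnc and Top2a/Mki67 columns.

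The promoter windows of Sema3e and Sema7a, which among guidance genes at 10 CPM or more had the largest log2 difference upwards in the Pi16/Dpp4 and in the Spp1/Tnc state, are shown because their levels ran in opposite directions between these states. Sema3e lies at chr5:14025026-14025275 and Sema7a at chr9:57939862-57940111, both on the plus strand of GRCm38.p6 (RefSeq), and capitals again mark motif matches.
Sema3e: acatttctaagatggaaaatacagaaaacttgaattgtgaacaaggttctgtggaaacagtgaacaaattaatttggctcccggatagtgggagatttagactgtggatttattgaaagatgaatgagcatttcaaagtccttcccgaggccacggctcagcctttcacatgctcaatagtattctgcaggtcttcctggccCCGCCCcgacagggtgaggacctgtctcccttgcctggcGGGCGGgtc
Sema7a: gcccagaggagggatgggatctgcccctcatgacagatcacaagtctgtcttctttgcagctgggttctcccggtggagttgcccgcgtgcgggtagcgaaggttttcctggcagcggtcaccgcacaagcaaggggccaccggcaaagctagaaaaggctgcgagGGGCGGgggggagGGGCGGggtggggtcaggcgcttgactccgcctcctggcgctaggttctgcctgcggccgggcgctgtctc
Each window holds 2 GC boxes and no match to the other motifs. G and C make up 48.0% of the Sema3e and 66.4% of the Sema7a window.

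The Pi16/Dpp4 state, whose name genes mark adventitial fibroblasts in many tissues, had the most calls, with 10 genes higher and 18 lower (15.4% of all genes were called). Sema3c had 1595, 1448 and 1705 CPM in it, and no other state exceeded 430 CPM on average. Its log2 difference was 3.39 ± 0.09 (adjusted p = 3.57e-21). Sema3e had 290, 292 and 214 CPM against 20.7 ± 2.04 in the other states, a log2 difference of 3.98 ± 0.13 (adjusted p = 1.98e-19). Sema3d (63.4 ± 14.3 against 15.8 ± 3.76 CPM) and Efna5 (378 ± 70.7 against 57.7 ± 2.66) were higher as well, and for these 4 genes every library lay above every library of every other state. Sema3b and Ntn4 were also called higher, with log2 differences of 1.76 and 1.51 (chosen after their values were seen).

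The receptors that were low in the Pi16/Dpp4 state came from several families. Unc5c had 0, 0.796 and 0.209 CPM there against 41.2 ± 5.66 in other states, with a log2 difference of -5.90 ± 0.44 (adjusted p = 1.00e-11). Epha4 was at 1.04 ± 0.222 against 20.5 ± 4.89 CPM, and Plxnd1, the Sema3e receptor, at 5.87 ± 0.222 CPM against means of 25.01 to 58.0 in the other states (named after its values were seen). Epha3, Ephb2 and Nrp2 were called lower too, by log2 differences of -2.80, -1.96 and -1.27. The ligands Slit2 and Sema7a were low too: Slit2 at 24.9 ± 5.38 against 280 ± 24.7 CPM and Sema7a at 0.759 ± 0.513 against 34.0 ± 3.34.

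In the Saa3/Kif26b state, 8 genes were higher and 3 lower (6.25% of all genes were called). Slit2 had 524, 740 and 867 CPM, above every library of every other state, with a log2 difference of 2.37 ± 0.13 (adjusted p = 2.24e-13). Unc5c, at 89.3, 102 and 108 CPM, was also above all others, with a difference of 2.87 ± 0.15 (adjusted p = 6.18e-14). Epha4 and Epha3 were higher by 1.52 and 1.10, the latter falling to 0.98, under the fold threshold, without replicate 3. Ntn1 was at 6.75, 6.50 and 6.83 CPM, below every library of the other states, and Sema3c and Sema3e were lower by -1.17 and -1.19.

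The Spp1/Tnc state had 9 genes higher and 6 lower (17.3% of all genes were called). Sema7a had 152, 142 and 145 CPM against 17.8 ± 3.67 in the other states, with a log2 difference of 4.38 ± 0.11 (adjusted p = 1.38e-20). Robo1 had 426, 449 and 420 CPM, and the next state reached 274 ± 50.4. Both were above every library of every other state. Unc5b (18.3 ± 3.80 against 4.56 ± 0.729 CPM), Unc5c (77.1 ± 10.4 against 32.6 ± 4.63) and Robo2 (10.5 ± 1.47 against 2.37 ± 1.07) were higher, and Nrp2 was higher by 1.48 (named after its values were seen). Sema3c, at 28.0, 26.9 and 32.5 CPM, was below every library of the other states, and Sema3b, Sema3d and Plxna4 were lower by -2.15, -1.98 and -1.72.

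The cycling Top2a/Mki67 state had 8 genes higher and 7 lower (20.1% of all genes were called). Sema7a had 61.1, 80.5 and 120 CPM and Robo1 217, 294 and 312, with log2 differences of 3.55 ± 0.14 (adjusted p = 7.09e-18) and 1.58 ± 0.06 (adjusted p = 7.57e-18). Unc5c and Unc5b were higher by 2.09 and 1.77, so these 4 genes were called higher in both this and the Spp1/Tnc state. Sema3d (1.95 ± 0.325 against 22.7 ± 5.31 CPM), Sema3b, Sema3c and Sema6c were lower. These 2 states had the highest median depths, 45270 and 46290 UMIs per cell, and the part of depth in their values was not tested. Both states are measured against a mean that contains the other.

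The Myoc/Abca8a state had 15 genes higher and 7 lower (16.4% of all genes were called). Ntn1 had 184, 183 and 190 CPM against 38.6 ± 3.76 in the other states, with a log2 difference of 2.57 ± 0.09 (adjusted p = 2.16e-18). Sema5a had 121, 144 and 131 CPM against 16.8 ± 2.73, a difference of 3.26 ± 0.13 (adjusted p = 1.12e-16). For both genes every library was above every library of all other states. Ntn4 and Epha4 were higher by 1.40 and 1.59. Slit2, at 12.7, 14.4 and 5.78 CPM, was below every library of the other states, and Unc5c, Sema7a and Plxna4 were lower by -3.51, -2.66 and -1.75.

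**Figure D4:**
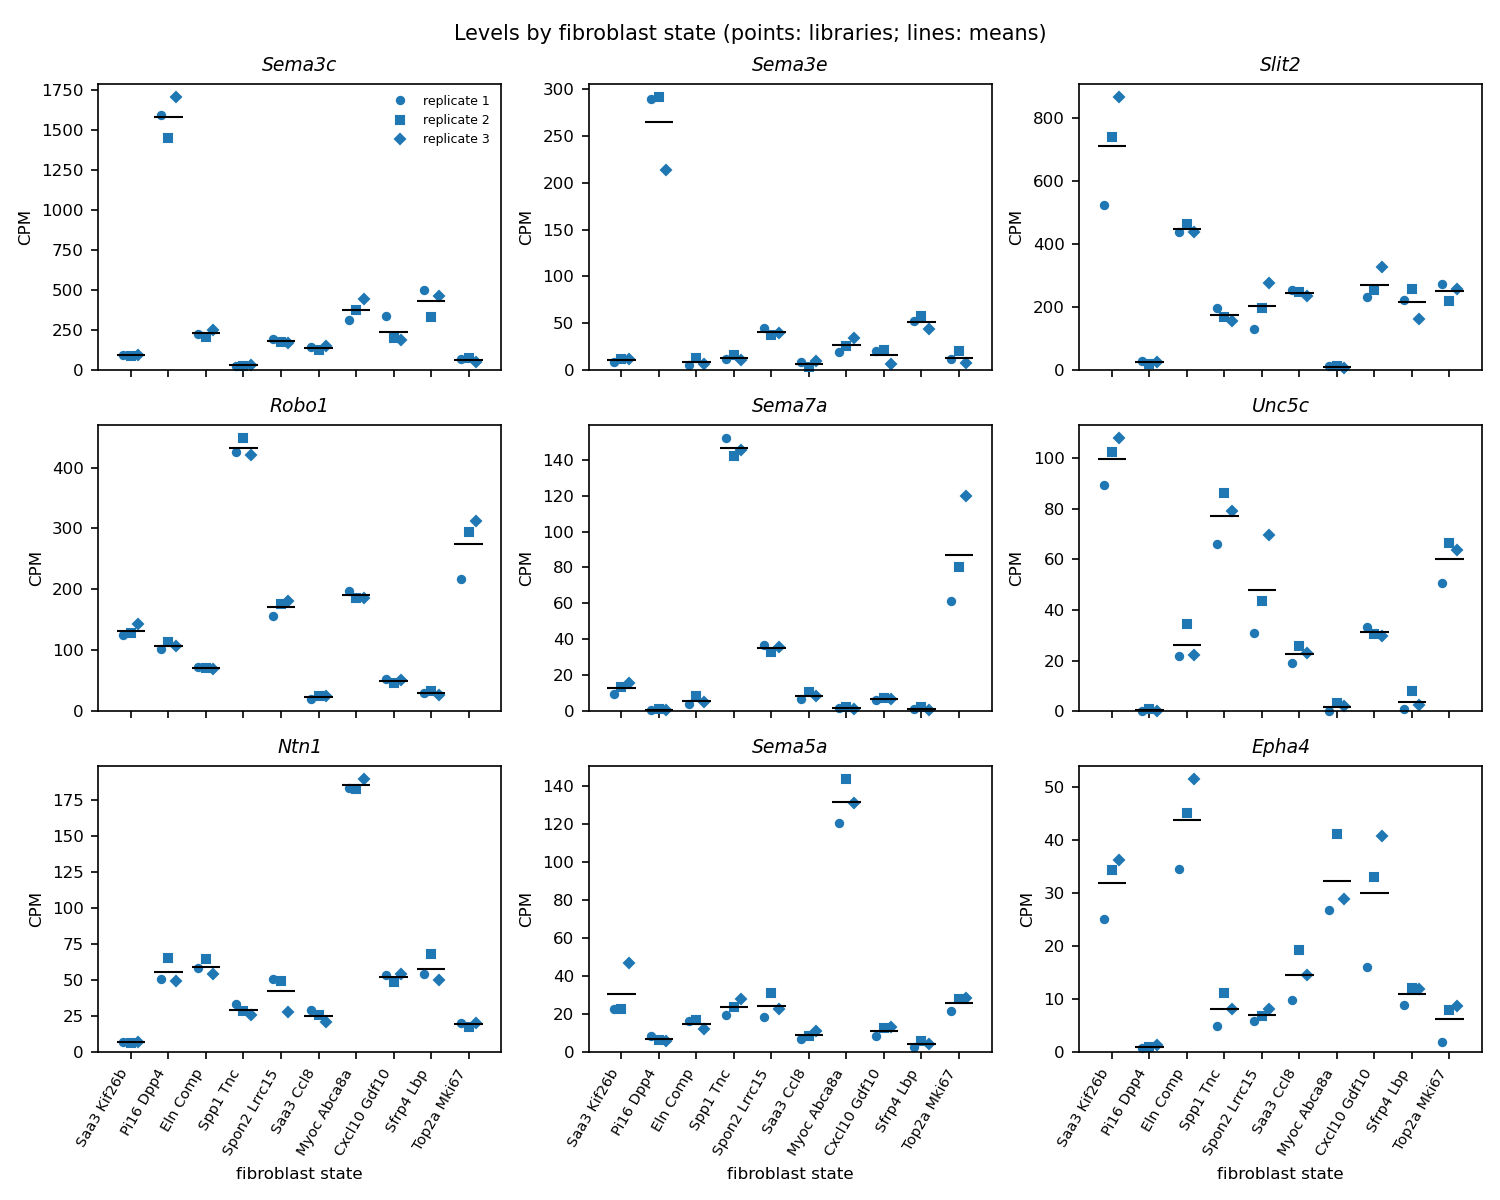
CPM of 9 guidance genes in the 10 fibroblast states; each point is 1 library and each line the mean of 3. Sema3c and Sema3e are highest in the Pi16/Dpp4 state, Slit2 and Unc5c in Saa3/Kif26b, Robo1 and Sema7a in Spp1/Tnc, and Ntn1 and Sema5a in Myoc/Abca8a cells; Epha4 has its highest mean in Eln/Comp cells but overlaps there with the Myoc/Abca8a, Saa3/Kif26b and Cxcl10/Gdf10 states.

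The other 5 states were as follows. The Eln/Comp state had 12 genes higher and 2 lower (9.23% of all genes were called), with Epha4 at 34.6, 45.1 and 51.6 CPM, Sema3a at 20.6 ± 2.30 against 6.30 ± 1.97, Sema3d at 45.1 ± 6.62 against 17.9 ± 4.63 and Slit2 at 447 ± 14.9 against 234 ± 24.2. Sema3e was lower there by -1.51. In the Saa3/Ccl8 state 2 genes were higher and 8 lower (13.2% of all genes were called). Sema3b and Ephb3 rose by 1.53 and 1.35 there, and Robo1, at 19.1, 25.2 and 24.1 CPM, was below every library of the other states. Sema3e, Efna5 and Sema6a were lower too, though Sema6a fell to -0.98 without replicate 1.

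In the Sfrp4/Lbp state, with only 65 cells in replicate 3, 5 genes were higher and 9 lower (4.74% of all genes were called). Sema3c, Sema3e and Plxna4 were higher by 1.30, 1.37 and 1.37, and Sema7a, Sema5a, Robo1 and Unc5c were lower by -1.93 to -2.67. As plain means, Sema3c had 430 ± 90.0 against 326 ± 21.4 CPM and Sema3e 51.4 ± 7.41 against 44.5 ± 5.87. The Plxna4 level was uneven, with 56.7, 41.1 and 8.78 CPM in replicates 1, 2 and 3 against 18.5 ± 4.34 in the other states. Sema4a had 22.3, 72.9 and 8.78 CPM there, and replicate 2 was the highest library for Sema4a in all 10 states, so its level differed between libraries as well as states. The Spon2/Lrrc15 state had 2 genes higher (Sema7a and Unc5c, by 2.08 and 1.65) and 2 lower (9.53% of all genes were called). Plain means lay closer together, at 35.1 ± 2.08 against 30.1 ± 3.37 CPM for Sema7a and 48.0 ± 19.7 against 35.9 ± 4.33 for Unc5c. The Cxcl10/Gdf10 state had 3 higher and 2 lower (8.62% of all genes were called), with Epha4 higher by 1.42 and Robo1 lower by -1.14. Its call for Unc5c (1.04) was lost without replicate 1, at 0.74.

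Endothelial- and lymphatic-like cells were divided in the same way, and 3 subclusters were tested: venular-like (84, 88 and 57 cells), lymphatic-like (68, 103 and 49) and an unnamed one led by Plcb1, Nav2 and Nav3 (48, 55 and 33). A further 2 subclusters with at least 20 cells in every library were left out of the tests. They held 71, 30 and 40 cells and 27, 27 and 20 cells, with median depths of 1031 and 1914 UMIs. Of 31 genes tested, the lymphatic-like subcluster had 11 higher and 10 lower (20.6% of all genes were called), the venular-like one 4 higher and 9 lower (11.9%), and the Plcb1/Nav2/Nav3 one 10 higher and 5 lower (11.5%). With 3 subclusters, a call rests on the geometric mean of the other 2, and 1 of 49 calls, Unc5b in Plcb1/Nav2/Nav3 cells, has the opposite sign to the plain means.

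The neuropilins differed between subclusters. Nrp1 had 0, 1.73 and 0 CPM in the lymphatic-like subcluster, 295, 268 and 285 in the venular-like and 585, 495 and 523 in the Plcb1/Nav2/Nav3 one. The lymphatic-like log2 difference was -8.82 ± 0.29 (adjusted p = 1.70e-12). Nrp2 had 654, 598 and 681 CPM in lymphatic-like, 457, 489 and 500 in venular-like and 306, 355 and 324 in Plcb1/Nav2/Nav3 cells, in the opposite order and without overlap, though no difference reached the fold threshold. Plxnd1 followed Nrp1, with 44.7 ± 21.0 CPM in lymphatic-like, 223 ± 6.35 in venular-like and 400 ± 89.6 in Plcb1/Nav2/Nav3 cells.

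Secreted ligands were also split. Sema3d had 486, 498 and 402 CPM in lymphatic-like cells, 7.15, 1.41 and 0 in venular-like cells and no UMI in Plcb1/Nav2/Nav3 cells, where a count of 0 allows up to 1.10 CPM over the 3 libraries. Its lymphatic-like log2 difference was 9.69 ± 0.32 (adjusted p = 2.11e-11). Ntn1 had 762, 712 and 865 CPM in lymphatic-like against 24.7, 11.99 and 29.6 in venular-like cells, and its receptor Unc5b had 201, 168 and 221 against 5.20, 2.12 and 0. Both genes were called higher in the lymphatic-like subcluster, by 6.08 and 3.98, as were Sema3a (661, 372 and 312 CPM), Efna5 (188 ± 26.6) and Sema4d (54.3 ± 5.64). Sema3g was the reverse, with 173, 123.5 and 130 CPM in Plcb1/Nav2/Nav3 cells and no UMI in lymphatic-like cells, which allows up to 0.591 CPM. Its lymphatic-like call was lost without replicate 1 (adjusted p = 1.0), while its call in Plcb1/Nav2/Nav3 cells was 9.63 ± 0.32 (adjusted p = 1.42e-10).

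**Figure D5:**
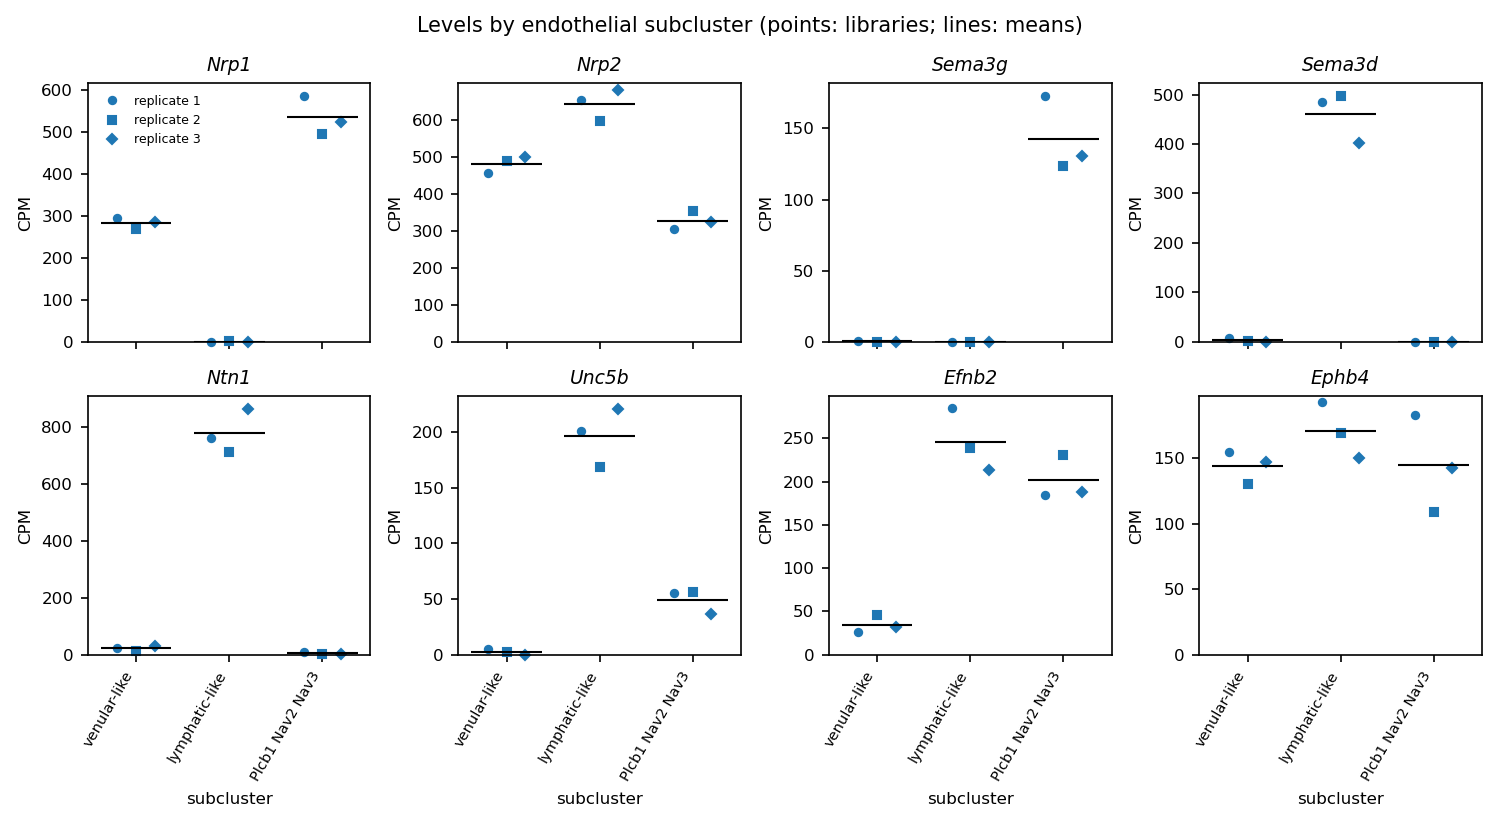
CPM of 8 guidance genes in the 3 endothelial subclusters that were tested. Each point is 1 library and each line the mean of 3. Nrp1 and Sema3g are at or near 0 in lymphatic-like cells, Sema3d, Ntn1 and Unc5b are highest there, Efnb2 is lowest in venular-like cells, and Ephb4 overlaps between all 3.

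Efnb2 had 26.0, 45.9 and 31.8 CPM in venular-like cells, 286, 239 and 214 in lymphatic-like and 185, 231 and 188 in Plcb1/Nav2/Nav3 cells. The venular-like level was lower by -2.70 ± 0.17 (adjusted p = 1.13e-08), with no overlap with either of the others. Ephb4 was called in no subcluster, with log2 differences of -0.13 to 0.24. Unc5b and Efna5 were lower in venular-like cells by -5.11 and -4.87, while Plxnb2 was higher there, at 150 ± 22.1 CPM, by 2.36. Sema7a (230 ± 8.94 CPM), Sema6d (183 ± 50.3) and Epha4 (79.8 ± 18.8) were, among the 3 tested subclusters, highest in Plcb1/Nav2/Nav3 cells. Called changes of Sema6b and Ntn4 in venular-like cells and of Ntn4 in Plcb1/Nav2/Nav3 cells were each lost when 1 library was left out (replicate 3, replicate 2, and replicate 1 or 3). Small subclusters gave values only, scaled together with the others. The arterial-like one (11, 11 and 5 cells) had 1521, 1376 and 1307 CPM of Sema3g, 386 ± 102 of Efnb2 and 422 ± 47.9 of Efna5, and 5.32 ± 4.81 of Nrp2 from 2 UMIs. On the same scale the lymphatic-like subcluster had 186, 211 and 247 CPM of Efna5, below all arterial-like libraries. It had 328, 271 and 245 CPM of Efnb2, which overlapped with 503, 337 and 318 in the arterial-like one. The capillary-like one (38, 4 and 33 cells) had 1524, 657 and 1574 CPM of Nrp1.

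Other genes of the pathway were counted from 3 lists. Of 24 further guidance cues and receptors (such as Neo1, the neogenin receptor, and the adhesion molecule Chl1), immune-like cells had 5 higher and 15 lower among 23 tested (48.9% of all genes were called), fibroblast-like cells 8 and 5 among 21 (30.8%), endothelial-like cells 3 and 12 among 21 (34.5%), mural-like cells 0 and 9 among 21 (24.1%), and macrophage-like cells 2 and 7 among 14 (26.2%). Chl1 had 181 CPM in fibroblast-like against 8.47 in other stromal-like cells, and in the states it was higher by 2.24 in Saa3/Kif26b and lower by -4.24 in Myoc/Abca8a cells. Of 38 cytoplasmic effectors, 36 were tested in fibroblast-like cells (7 higher, 5 lower), 36 in endothelial-like (9 and 7), 35 in mural-like (2 and 9), 35 in macrophage-like (7 and 9) and 36 in immune-like cells (6 and 14). Against the same shares of all genes, the effector count in fibroblast-like cells lay close to the background. Of 5 shedding and processing proteases, Pcsk6 was called higher in the Pi16/Dpp4 state, at 544 CPM against 88.9 in the others, a log2 difference of 3.27, and Pcsk5 and Pcsk6 were lower in immune-like cells by -6.48 and -6.19. The genes of these lists named here were chosen after their values were seen.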

How the data were processed

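Droplet libraries of transcript 3′ ends were made with 10x Genomics chemistry version 3.1, per the labels' protocols. The deposited matrices hold UMI counts, unnormalized, for every gene in every barcode. The file headers name software version 7.0.0 and the submitters' processing notes Cell Ranger 6.1.2. The build, annotation and intron counting were not given in the sources used here. Gene coordinates are therefore printed only for RefSeq promoter windows (GRCm38.p6), which do not place the files' genes. Libraries held 136519688, 192348779 and 104482261 UMIs. No pair was a duplicate (chi-square of at least 55.0 per gene).

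Cells were kept with at least 500 UMIs, 200 genes and at most 20% mitochondrial counts. The top 0.8% of Scrublet scores per 1000 barcodes were removed as doublets (295, 598 and 200, where its automatic threshold gave 69, 133 and 30). In scanpy 1.11.5, 2000 variable genes without any guidance or pathway gene, 30 components, 15 neighbors and leidenalg 0.10.2 at resolution 1.0 gave 28 clusters, 73 after splitting mixed ones. A name needed 3 markers found in 25% of cells. UMIs were summed per library and class and tested with edgeR 4.0.16 (R 4.3.3, filterByExpr, TMM, library as a block because both sums come from 1 suspension). Standard errors were derived from the F statistic and the log2 difference. The script was tested on simulated data. Alternatives were DESeq2 1.42.0, other filters, weights, doublet rates and cluster resolutions, no library block, and leaving out each library.

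Genes with values were named mainly by a rule. It took up to 6 called genes per comparison and direction with the largest difference at 10 CPM or more, and up to 4 per fibroblast state. It also took that gene of each family with the largest CPM in the 12 larger classes. Other genes were named outside this rule, and not all are marked where they appear. Examples are Nrp1 in the fibroblast-like comparison, Robo1 in the Spp1/Tnc state and genes under Other observations. The members and lists were chosen with earlier results of these data known. All members' identifiers matched the reference table. Counts of 3′ ends are not scaled by transcript length, so levels of different genes are not compared beyond picking the gene of each family with the largest CPM. Intervals and limits from a count of 0 (3 counts) cover counting error only.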

Additional observations from a re-analysis of the deposited data

How the results depend on the processing

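Counts of called genes moved by over 1.5 times under 1 alternative, equal weight for every larger class of a side. Immune-like cells then had 5 genes higher and 19 lower. The lower counts were 5 for fibroblast-like, 12 for endothelial-like, 4 for mural-like and 5 for macrophage-like cells, with 23 higher in mural-like cells. That fit runs over classes with at least 20 cells in every library instead of summed cells. The smaller classes, which the sums include, were left out of it. Among the named genes, 2 changed sign, Nrp2 in immune-like cells (-0.10 with equal weight) and Sema3g in mural-like cells (-0.73 at Leiden resolution 2.0), and the cause was not tested. Leaving out 1 library gave 8 to 9 higher and 43 to 44 lower in immune-like cells, 16 to 17 and 26 to 28 in fibroblast-like, 20 to 22 and 21 to 23 in endothelial-like, 9 to 12 and 17 to 21 in mural-like, and 5 to 6 and 8 to 10 in macrophage-like cells. Over fibroblast states it gave 69 higher in each case and 57 to 67 lower, and over endothelial subclusters 23 to 25 and 22 to 23. Of 151 named differences, the call stood in 150 with DESeq2, 151 without a filter on low counts, 149 without the library block (replicate block), 150 with more doublets removed, and 147, 150 and 148 without replicates 1, 2 and 3. Equal class weight and the finer resolution were applied to 54 of these differences, those between classes. With equal class weight only 36 of the 54 calls stood, 17 were lost and 1 changed sign. At Leiden resolution 2.0, 53 stood and 1 changed sign. Without the block, Sema4a in Spon2/Lrrc15 cells (adjusted p = 0.158) and Ntn4 in Plcb1/Nav2/Nav3 cells (0.0546) lost their calls, and no count of calls moved by over 1.5 times. Depth limits the smaller subclusters, where a count of 0 allows up to 9.50 CPM (arterial-like).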

Other observations

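Classes with fewer than 20 cells in a library entered no test of their own and are given as values. Migratory dendritic-like cells (6, 3 and 13 cells) had 1431, 597 and 1503 CPM of Plxnc1, from 131, 35 and 305 UMIs, where the highest of the 12 tested classes had 202 ± 85.2 CPM. They also had 208.6 ± 36.0 CPM of Sema7a, a ligand of Plxnc1, and 532 ± 105 of Nrp2. Schwann-like cells (13, 9 and 15 cells) had 448, 1097 and 533 CPM of Sema5a and 102 ± 12.5 of Ephb6, a receptor without kinase activity that was at most 1.96 CPM in the tested classes. Perineurial-like cells (3, 11 and 5 cells) had 608, 318 and 358 CPM of Ntn1 and 208, 131 and 158 of Ephb2. Satellite- or myoblast-like cells (33, 9 and 11 cells) had 427, 431 and 294 CPM of Sema6a. Plasmacytoid dendritic-like cells (12, 14 and 13 cells) had 272, 246 and 284 CPM of Sema4d. Among the tested classes, cDC1-like cells were the only one with Sema4f over 10 CPM, at 21.4, 25.7 and 25.2 CPM.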
